A study of Mus musculus with 6 samples.

Results

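Chemokine receptors, the surface proteins that steer regulatory T (Treg) cells between lymphoid organs and tissues, were read in an RNA-seq comparison of miR-142–deficient and control Treg cells. The members were 9 receptor genes taken by symbol from the count table, Ccr2, Ccr4, Ccr6, Ccr7, Ccr8, Cxcr3, Cxcr4, Cxcr5 and Cxcr6, out of 24421 genes in all. All 9 passed the filter on low counts, and the lowest count of any of them in a library was 131. CD4+YFP+ Treg cells had been sorted from the spleens of female C57BL/6 mice 8 to 11 weeks old, and 1 library was made for each mouse, with 3 mice per genotype. The WT group was Foxp3Cre and the KO group was Foxp3Cre miR-142fl/fl. Both groups therefore carried the same Foxp3 allele, in which the endogenous promoter drives a fusion of Cre recombinase with yellow fluorescent protein, and in the KO mice this Cre removed miR-142 in cells that had expressed Foxp3. The KO mice had a systemic autoimmune disease, so the cells of the 2 groups differed in the miRNA and also in the inflammation of the mice they came from, and these cannot be told apart in this design.

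Chemokine receptors are G protein–coupled receptors that signal mainly through inhibitory G proteins and guide cells up gradients of small secreted proteins, the chemokines. In Treg cells, CCR7 is known for entry into lymph nodes and T cell zones, CXCR5 for entry into B cell follicles, CXCR4 for homing to bone marrow, and CCR4, CCR8, CCR6, CCR2, CXCR3 and CXCR6 for recruitment to skin, mucosa and inflamed tissue. A Treg cell that also expresses CXCR5 and the transcription factor BCL6 is called a follicular regulatory T cell.

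Each library held between 13883069 and 24042994 counts, and 3 counts corresponded to between 0.123 and 0.227 CPM. Values are given as CPM, counts scaled to library size after TMM normalisation, in the order of replicates 1, 2 and 3. Differences are log2 fold changes of KO over WT from edgeR's quasi-likelihood F (QLF) test, with a false discovery rate (FDR) over all genes tested, and a gene was called at an FDR under 0.05. Mir142 had 0 counts in all 6 libraries, and the annotation Mir142b at the same locus had 147, 101 and 105 counts in WT and 7, 5 and 5 counts in KO, so the locus followed the labels. KO replicate 1 stood apart from the other 5 libraries. Its summed level of 12 monocyte and macrophage genes was 2825 CPM against 79.7 CPM or less in every other library, its summed level of 11 neutrophil genes was 911 CPM against 41.1 CPM or less, its summed level of 9 B cell genes was 316 CPM against 41.8 CPM or less, and all 12 monocyte and macrophage genes and all 9 B cell genes were highest in it. The 7 Treg identity genes, Foxp3, Il2ra, Ctla4, Ikzf2, Tnfrsf18, Cd4 and Cd3e, were above 1 CPM in every library and none was highest in KO replicate 1. KO replicates 2 and 3 were also above every WT library for the monocyte and macrophage sum (79.7 and 23.3 CPM against 12.9 CPM or less). Their neutrophil sums were 7.87 and 41.1 CPM against 1.29 CPM or less in WT. Their B cell sums, 9.08 and 12.9 CPM, were below the WT libraries (30.6 CPM or more). Since KO replicate 1 stood apart, the receptors are given with and without it, and leaving it out does not remove these differences.

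Of the 9 receptors, 1 was called higher in KO Treg cells (Ccr2) and 2 were called lower (Cxcr5 and Ccr4), and 6 did not pass the test. Called higher were 11.1% of the receptors, against 11.6% of the 11658 genes tested, and called lower were 22.2% of the receptors, against 7.27% of the genes tested. The median log2 fold change of the 9 was -0.13, beside 0.02 over all genes tested. Without KO replicate 1 the same 3 receptors were called in the same directions, where 9.69% of the 11429 genes tested were called higher and 7.59% lower. All 3 KO libraries lay above all 3 WT libraries for 1 receptor, as they did for 22.2% of the genes tested, and below them for 2 receptors, as they did for 18.8% of the genes tested. The receptors called are so few that these shares describe the 9 genes and nothing wider. An exact two-sided permutation test of 3 mice against 3 cannot give a p below 0.1, the value that Ccr2, Ccr4 and Cxcr5 each reached, so each call comes from edgeR's fit to the whole table.

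**Figure D1:**
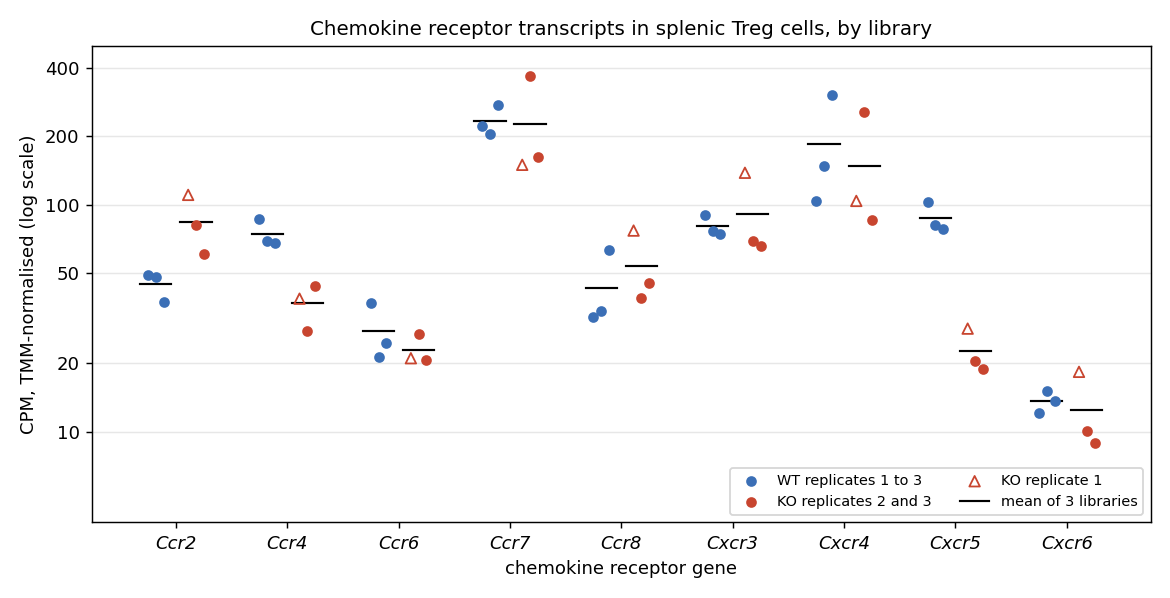
CPM of the 9 chemokine receptor genes (horizontal axis) in each library, on a log scale, with WT libraries in blue, KO replicates 2 and 3 in red, KO replicate 1 as an open triangle and the mean of 3 libraries as a line. The groups are separated for Ccr2, Ccr4 and Cxcr5 and overlap for the other 6 genes, and KO replicate 1 is the highest of the 6 libraries for Ccr2, Ccr8, Cxcr3 and Cxcr6.

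Cxcr5, the receptor for the follicular chemokine CXCL13, had the largest difference of the 9. It had 103, 81.0 and 77.8 CPM in the WT libraries and 28.5, 20.5 and 18.8 CPM in the KO libraries. Every KO library lay far below every WT library, and KO replicate 1 was the highest of the 3. The mean fell from 87.4 ± 13.9 to 22.6 ± 5.15 CPM (SD, 3 mice each), 3.86-fold lower in KO. On the log2 scale this was -1.95 (SE 0.19, 95% confidence interval -2.39 to -1.51, FDR = 0.00135). Without KO replicate 1 the log2 fold change was -2.17 (FDR = 0.000183), and it lay between -2.17 and -1.84 when any 1 library was left out, always called. In a bulk library a smaller share of Cxcr5-expressing cells and less Cxcr5 RNA per cell cannot be told apart. B cells also express Cxcr5, and the summed level of the 9 B cell genes was between 30.6 and 41.8 CPM in the WT libraries, 316 CPM in KO replicate 1, and 9.08 and 12.9 CPM in KO replicates 2 and 3. Of these 9 genes, 3 were above 1 CPM in each WT library. The part of these B cell transcripts in the Cxcr5 values was not tested.

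Other genes of the follicular T cell programme were read from a list of 5 follicular helper T cell genes, chosen with earlier results of these data known. Bcl6, the transcription factor that defines follicular helper and follicular regulatory T cells, had 57.1, 75.6 and 69.4 CPM in WT and 33.7, 28.4 and 21.8 CPM in KO (log2 fold change -1.27, SE 0.18, FDR = 0.00497). Cd40lg, which encodes the CD40 ligand that T cells present to B cells, had 28.7, 28.5 and 47.1 CPM in WT and 13.9, 16.5 and 14.8 CPM in KO (log2 fold change -1.21, SE 0.22, FDR = 0.0111). For both genes every KO library was below every WT library, and without KO replicate 1 the log2 fold changes were -1.44 (FDR = 0.00154) and -1.16 (FDR = 0.0151). Pdcd1, which encodes the inhibitory receptor PD-1, had 145, 122 and 106 CPM in WT and 81.8, 35.6 and 77.7 CPM in KO (log2 fold change -0.93, FDR = 0.0677). Il21, a cytokine of follicular helper cells, had 2.09, 3.89 and 4.92 CPM in WT and 2.33, 0.454 and 0.411 CPM in KO (log2 fold change -1.72, FDR = 0.112). Neither of these last genes passed the test with all libraries. Without KO replicate 1 both did, with an FDR of 0.0325 for Pdcd1 and 0.00565 for Il21. Il4, a cytokine of type 2 and follicular helper cells, went the other way, with 1.79, 1.97 and 1.94 CPM in WT and 5.99, 4.24 and 4.65 CPM in KO (log2 fold change 1.39, FDR = 0.00833). Il4 had a log2 fold change of 1.21 without KO replicate 1 (FDR = 0.0132). In all, 2 of the 5 genes fell, 1 rose and 2 did not pass the test, beside 7.27% of all genes tested called lower and 11.6% called higher.

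**Figure D2:**
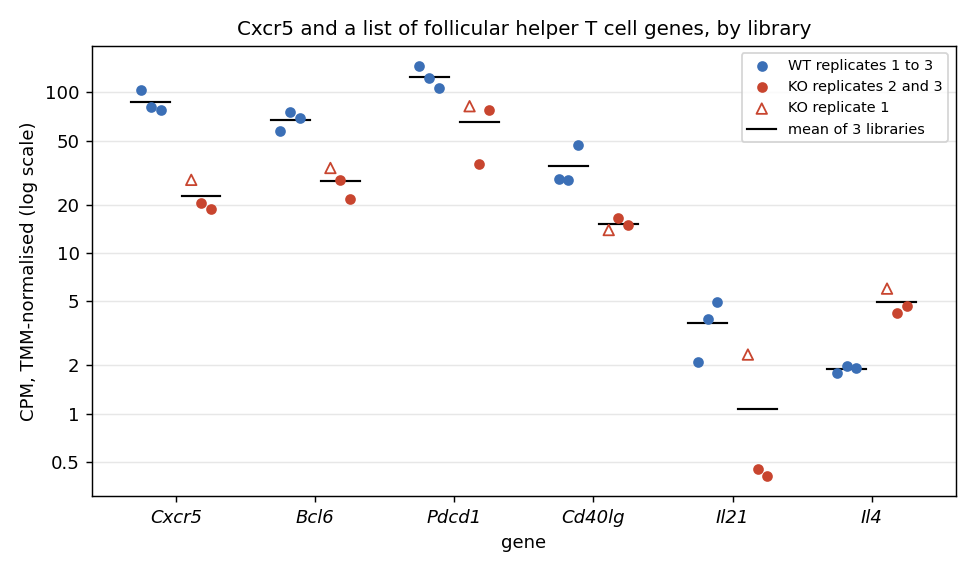
CPM of Cxcr5 and 5 genes of a follicular helper T cell list (horizontal axis) in each library, on a log scale, with WT libraries in blue, KO replicates 2 and 3 in red, KO replicate 1 as an open triangle and the mean of 3 libraries as a line. All KO libraries are below all WT libraries for Cxcr5, Bcl6, Pdcd1 and Cd40lg and above them for Il4, and the groups overlap for Il21, where KO replicate 1 has 2.33 CPM.

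Ccr4 and Ccr8 encode receptors known for Treg cell recruitment to skin and other tissues, CCR4 for the ligands CCL17 and CCL22 and CCR8 for CCL1. Ccr4 had 86.2, 69.2 and 68.1 CPM in WT and 38.6, 27.9 and 43.9 CPM in KO. All KO libraries were below all WT libraries, and KO replicate 1 lay between the other 2 of its group. From a WT mean of 74.5 ± 10.1 CPM the level fell to 36.8 ± 8.18 CPM (SD, 3 mice each), which is 2.02-fold lower. Its log2 fold change was -1.02 (SE 0.18, 95% confidence interval -1.44 to -0.59, FDR = 0.0108). It was -1.07 (FDR = 0.0109) without KO replicate 1 and remained called when any 1 library was left out, with an FDR between 0.0109 and 0.0417.

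Ccr8 had 31.9, 33.98 and 62.95 CPM in WT and 76.9, 38.8 and 45.4 CPM in KO. The groups overlapped, since WT replicate 3 was above KO replicates 2 and 3. Ccr8 gave a log2 fold change of 0.33 (SE 0.34, 95% confidence interval -0.46 to 1.11, FDR = 0.536) and -0.04 without KO replicate 1. The data therefore did not resolve a difference in Ccr8, and the interval includes a rise of more than the size of the Ccr4 difference.

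Ccr2 encodes the receptor for CCL2 and related chemokines, which draw monocytes and effector T cells to inflamed sites. It had 49.1, 47.8 and 37.2 CPM in WT and 110.5, 81.5 and 60.9 CPM in KO. Every KO library was above every WT library, with KO replicate 1 the highest. From a WT mean of 44.7 ± 6.57 CPM the level rose to 84.3 ± 24.9 CPM (SD, 3 mice each), which is 1.89-fold higher. Its log2 fold change was 0.91 (SE 0.22, 95% confidence interval 0.40 to 1.43, FDR = 0.0293). Without KO replicate 1 it was 0.65 (FDR = 0.0331), or 1.57-fold. The call was lost when WT replicate 1, 2 or 3 was left out, with FDRs of 0.0782, 0.0935 and 0.105. Monocytes express Ccr2 strongly, and the 12 monocyte and macrophage genes summed to between 8.56 and 12.9 CPM in WT. In KO replicates 1, 2 and 3 they summed to 2825, 79.7 and 23.3 CPM, in the same order as Ccr2. Lyz2 (371, 1.14 and 2.19 CPM) and Ly6c2 (18.9, 1.89 and 3.90 CPM) were higher in KO replicate 3 than in KO replicate 2, unlike the rest of the list. Of the 12, 2 to 3 were above 1 CPM in a WT library, and 12, 10 and 4 were in KO replicates 1, 2 and 3. The part of these transcripts in the Ccr2 values was not tested.

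Ccr2 lies in a cluster of chemokine receptor genes on mouse chromosome 9. On the mm10 assembly, 7 receptor genes of the lists read here lie within 435 kb (chromosome 9, 123678439 to 124113557), in the order Ccr9, Cxcr6, Xcr1, Ccr1, Ccr1l1, Ccr3 and Ccr2. The bounds were set at Ccr9 and Ccr2, so these 2 genes lie within them by construction. Of the 7 genes, 5 were tested, of which 2 were called higher, Ccr9 and Ccr2, beside 11.6% of all genes tested. By edgeR or DESeq2, 0 were called lower, beside 7.27% of all genes tested with edgeR. A negative change with an unadjusted edgeR p under 0.05 was seen for 0 of them. Cxcr6, Xcr1 and Ccr3, which lie between Ccr9 and Ccr2, were not called.

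Ccr9, the receptor for CCL25 and a receptor of gut and thymus homing, had 9.67, 10.7 and 14.3 CPM in WT and 27.8, 23.9 and 26.4 CPM in KO. The KO libraries lay close together and all above WT. For Ccr9 the log2 fold change was 1.17 (SE 0.17, FDR = 0.00552), 1.10 without KO replicate 1, and the gene was called when any 1 library was left out. Of the exon bases annotated for Ccr9, 21.5% overlap other genes, mostly the antisense gene AC165425.1, and since reads were counted without regard to strand the 2 transcripts cannot be told apart there. Of the stretches of 51 bases, the read length, in the Ccr2 transcripts, 1.86% were found in any other gene, so only a small part of its sequence can share reads.

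Cxcr3 and Cxcr6 are receptors of type 1 inflammation. CXCR3 binds CXCL9 and CXCL10, which interferon gamma induces, and CXCR6 binds CXCL16. Cxcr3 had 89.7, 77.0 and 74.3 CPM in WT and 138, 69.3 and 65.9 CPM in KO. KO replicate 1 was above every WT library, and KO replicates 2 and 3 were below every WT library. The log2 fold change was 0.18 (SE 0.28, 95% confidence interval -0.47 to 0.84, FDR = 0.681) and turned to -0.27 (95% confidence interval -0.52 to -0.01, FDR = 0.143) without KO replicate 1.

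Cxcr6 had 12.1, 15.2 and 13.7 CPM in WT and 18.4, 10.1 and 8.96 CPM in KO. The pattern was that of Cxcr3, with KO replicate 1 above and KO replicates 2 and 3 below the whole WT group. The log2 fold change was -0.13 (SE 0.28, 95% confidence interval -0.79 to 0.53, FDR = 0.774), and -0.54 (95% confidence interval -0.95 to -0.14, FDR = 0.0690) without KO replicate 1. Tbx21, which encodes T-bet, the factor that drives Cxcr3 in T cells, had 15.8, 15.0 and 16.2 CPM in WT and 51.01, 17.1 and 23.3 CPM in KO (log2 fold change 0.97, SE 0.37, FDR = 0.112). It was called without KO replicate 2 (FDR = 0.0348) and with DESeq2 (FDR = 0.0335), and it was 0.36 (FDR = 0.175) without KO replicate 1. Cxcl9 had 199.9 CPM in KO replicate 1 and 0.303 CPM or less in every other library. Whether the Cxcr3 and Cxcr6 transcripts of KO replicate 1 came from Treg cells was not tested.

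Ccr7 and Cxcr4 had the widest spread among KO mice, with SDs of 123 and 93.7 CPM around means of 227 and 149 CPM. Ccr7, the receptor for CCL19 and CCL21, had 222, 204 and 275 CPM in WT and 149.8, 368 and 162 CPM in KO. KO replicate 2 was the highest of all libraries, and KO replicates 1 and 3 were below every WT library. The log2 fold change was -0.04 (SE 0.34, 95% confidence interval -0.84 to 0.75, FDR = 0.940) and 0.17 without KO replicate 1. Without KO replicate 2 it was -0.58 and passed the test (FDR = 0.0356), so a single library decided whether Ccr7 was called.

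Cxcr4, the receptor for CXCL12, had 104, 148 and 305 CPM in WT and 104, 256 and 85.5 CPM in KO. Both groups spanned about the same range. The log2 fold change was -0.32 (SE 0.51, 95% confidence interval -1.52 to 0.87, FDR = 0.694), the widest interval of the 9. Cd69, an early activation gene that opposes exit from lymphoid tissue, had 83.3, 176 and 281 CPM in WT and 129.7, 269.8 and 131 CPM in KO, and Rgs2, a regulator of G protein signalling, had 26.4, 117 and 297 CPM in WT and 119, 141 and 78.6 CPM in KO. In the WT group both genes, named after their values were seen, had the same order over the libraries as Cxcr4. Ccr8 and S1pr1 had that order in WT too, and a link of any of these genes to Cxcr4 was not tested.

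Ccr6, the receptor for the mucosal chemokine CCL20, had 37.1, 21.4 and 24.7 CPM in WT and 21.1, 26.95 and 20.7 CPM in KO. The groups overlapped, and WT replicate 1 was the highest. The log2 fold change was -0.27 (SE 0.22, 95% confidence interval -0.80 to 0.25, FDR = 0.426) and -0.23 without KO replicate 1. Ccr6 is also expressed by B cells, whose genes were highest in KO replicate 1, and their part in the Ccr6 values was not tested.

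**Figure D3:**
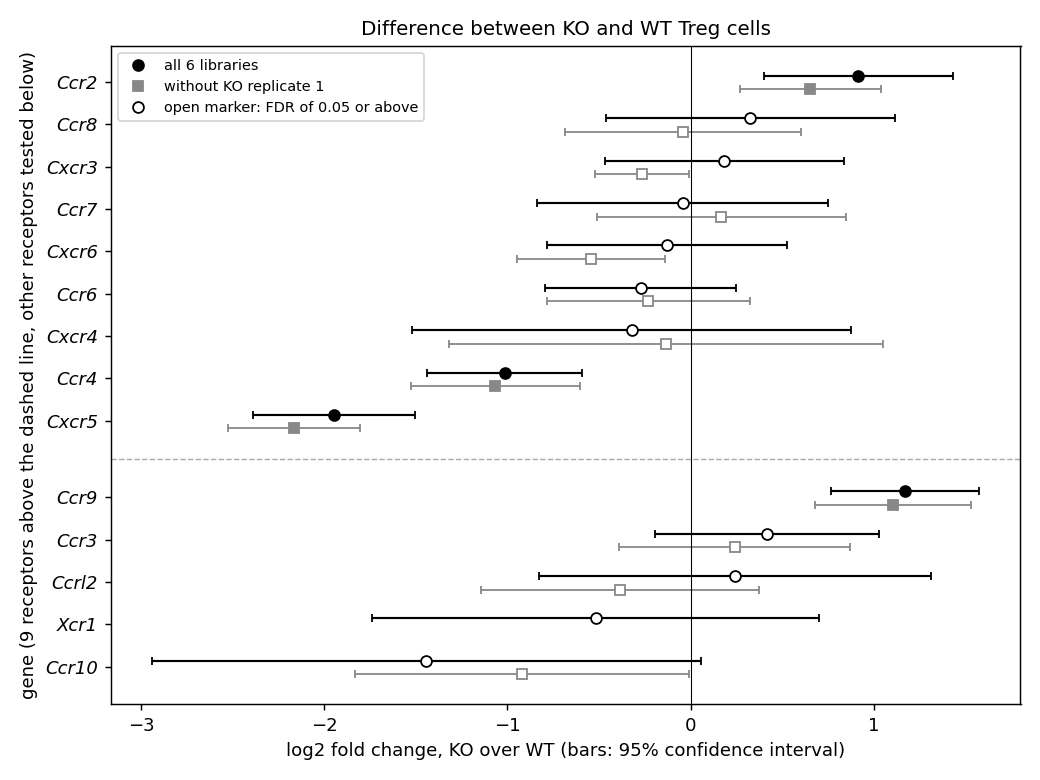
Log2 fold change of KO over WT (horizontal axis) with its 95% confidence interval for the 9 receptors above the dashed line and the 5 other chemokine receptors tested below it, with all 6 libraries (black circles) and without KO replicate 1 (grey squares, absent for Xcr1, which then did not pass the filter). Filled markers have an FDR under 0.05 and open markers do not. Ccr2, Ccr4, Cxcr5 and Ccr9 are filled in both fits, and Cxcr3, Ccr8 and Ccrl2 cross from above to below 0, and Ccr7 from below to above 0, without KO replicate 1.

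KO replicate 1 was the highest of the 6 libraries for 4 of the 9 receptors (Ccr2, Ccr8, Cxcr3 and Cxcr6) and the lowest for 1 (Ccr7). The share of all genes tested that were highest or lowest in this library was not counted. Against the mean of KO replicates 2 and 3, its level was 2.04-fold for Cxcr3, 1.93-fold for Cxcr6, 1.83-fold for Ccr8, 1.55-fold for Ccr2 and 1.45-fold for Cxcr5. It was 1.07-fold for Ccr4, 0.886-fold for Ccr6, 0.608-fold for Cxcr4 and 0.565-fold for Ccr7. Other receptors of myeloid cells were nearly confined to it. Cxcr2, a neutrophil receptor, had 11.1 CPM in KO replicate 1 and 0 counts in the other 5 libraries, Cx3cr1, a receptor of monocytes and macrophages, had 39.1 CPM there and 1.03 CPM or less elsewhere, and Ccr1 had 10.5 CPM there and 0.615 CPM or less elsewhere.

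To compare receptors with each other, levels were divided by the length of each gene's exons, as CPM per kilobase. In WT Treg cells the order was Ccr7 (118), Cxcr4 (103), Cxcr3 (46.4), Ccr8 (36.6), Cxcr5 (26.2), Ccr4 (24.1), Ccr6 (11.9), Cxcr6 (7.08) and Ccr2 (6.62). Of neighbours in that order, the 3 WT libraries did not overlap between Cxcr4 and Cxcr3, Ccr4 and Ccr6, or Ccr6 and Cxcr6, and overlapped for every other pair of neighbours. In KO Treg cells the order was Ccr7 (115), Cxcr4 (82.2), Cxcr3 (52.6), Ccr8 (45.7), Ccr2 (12.5), Ccr4 (11.9), Ccr6 (9.87), Cxcr5 (6.78) and Cxcr6 (6.46). The first 4 places were the same in both genotypes. Cxcr5 moved from the fifth place to the eighth, and Ccr2 moved from the last place to the fifth. The KO libraries did not overlap between Ccr8 and Ccr2 or between Ccr6 and Cxcr5. They overlapped for every other pair of neighbours, the first 4 places included. Ccr2 had 16.3 CPM per kilobase in KO replicate 1. In KO replicates 2 and 3 it had 12.1 and 9.01, beside 9.01 and 14.2 for Ccr4 and 11.6 and 8.91 for Ccr6. With the longest transcript as the length, Ccr2 and Cxcr6 changed places at the end of the WT order.

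Mature miR-142 acts through its seed, bases 2 to 8, which pairs with sites in the 3′ untranslated regions (3′ UTRs) of mRNAs and lowers their level. The mature sequences, from RefSeq on GRCm38.p6 (chromosome 11, plus strand), are printed 5′ to 3′ with the seed in capitals, because the sites searched for are their complements.
mmu-miR-142a-3p: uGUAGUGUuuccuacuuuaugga
mmu-miR-142a-5p: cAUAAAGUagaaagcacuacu
The sense strand of each 3′ UTR was searched for ACACTAC or CACTACA (the 3p seed, called 3p.1), for AACACTA or ACACTAA (the 3p seed shifted by 1 base, 3p.2), and for ACTTTAT or CTTTATA (the 5p seed), and the 3p.1 and 3p.2 letters can overlap. In the longest annotated 3′ UTRs of the 9 receptors, which run from 24 bases (Ccr8) to 2701 bases (Ccr2) with a median of 762 bases, 0 of 9 held any of these letters, and neither did any of their shorter annotated 3′ UTRs. Among 11142 genes tested whose 3′ UTR was found, 13.4% held a 3p.1 site, 16.1% a 3p.2 site and 24% a 5p site, and 38.9% held at least 1 of the 3, with a median 3′ UTR of 1374.5 bases. Ccr2, Ccr4 and Cxcr5, the receptors that were called, thus had no such letters in 3′ UTRs of 2701, 1597 and 1447 bases. The absence of these letters says nothing about other kinds of pairing.

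A 3p.1 or 3p.2 site was held by 24.1% of the 11142 genes tested whose 3′ UTR was found. Of the 5 other chemokine receptors tested, Ccr9 was the 1 with 3p sites. Its 3′ UTR, of 3966 bases, held 3 sites of the 3p.1 kind and 1 of the 3p.2 kind, which overlapped the longest 3p.1 match. That match is printed as the mRNA reads, with the 3p.1 site in capitals, from chr9:123783003-123783010 (mm10, plus strand, last exon).
Ccr9: ggagtttgggaACACTACAggaaacacagg
The match covers the whole seed complement and the A that follows it. Xcr1 held 1 site of the 5p kind, and Ccr3, Ccr10 and Ccrl2 held none. A match is a description of the sequence and no measurement of binding.

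**Figure D4:**
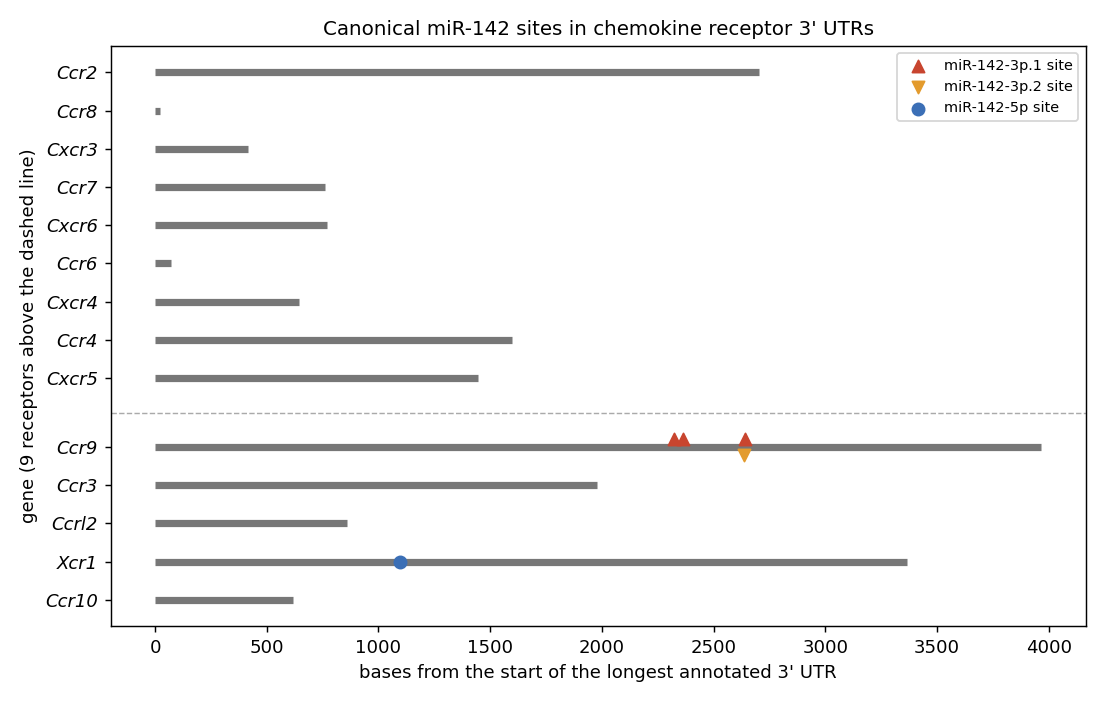
Longest annotated 3′ UTR of each chemokine receptor tested, drawn to length in bases from its start (horizontal axis), with the 9 receptors above the dashed line and 5 others below it; markers are matches to the miR-142-3p.1, 3p.2 and 5p sites. The 9 receptors hold none, Ccr9 holds 4 and Xcr1 holds 1.

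The other 4 chemokine receptors tested were not called. Ccr3, the eotaxin receptor, had between 3.43 and 5.82 CPM in WT and between 5.20 and 7.27 CPM in KO (log2 fold change 0.42, FDR = 0.297). Ccr10, a skin-homing receptor, had 2.22, 2.09 and 2.93 CPM in WT and 0.167, 0.757 and 1.78 CPM in KO (log2 fold change -1.44, SE 0.64, FDR = 0.157), all KO libraries being below all WT libraries, and without KO replicate 3 it was called lower (FDR = 0.0421). Ccrl2, an atypical receptor, had a log2 fold change of 0.24 (FDR = 0.740) that turned to -0.38 without KO replicate 1. Xcr1, a receptor of cross-presenting dendritic cells, was near 1 CPM or below it (log2 fold change -0.52, FDR = 0.522). The remaining 9 of 14 listed receptors did not pass the filter. Of 18 listed ligands of the 9 receptors, 2 were tested and 0 were called, Cxcl10 at a log2 fold change of 1.11 (FDR = 0.188) and Ccl1 at 1.14 (FDR = 0.179), both highest in KO replicate 1. Of the ligands, 0 had an unadjusted edgeR p under 0.05 and 0 were called by DESeq2.

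Among 15 adhesion and trafficking genes, all tested, 5 rose, 0 fell and 10 did not pass the test, beside 11.6% of all genes tested called higher and 7.27% called lower. Their median log2 fold change was -0.0035. Itgal and Gpr183, named after their values were seen, had negative log2 fold changes (-0.42 and -0.54) with an unadjusted edgeR p under 0.05 and an FDR of 0.0541 and 0.0542, and DESeq2 called 2 of the 15 genes lower. Itgae, the alpha chain of the integrin that binds E-cadherin on epithelium, had 132.9, 127 and 102 CPM in WT and 597, 479 and 558 CPM in KO, with no overlap (log2 fold change 2.18, SE 0.14, FDR = 0.000508). Its partner Itgb7 had 1009.5, 889 and 949.6 CPM in WT and 1545, 1279 and 1728 CPM in KO (log2 fold change 0.68, SE 0.13, FDR = 0.0147). The others were Gpr15, a receptor of homing to the large intestine (log2 fold change 0.998, FDR = 0.0280), Itgav (0.94, FDR = 0.00658) and Selplg, the selectin ligand PSGL-1 (0.49, FDR = 0.0188), the last named after its values were seen. Itgb7 lost its call when WT replicate 1, 2 or 3 was left out (FDR = 0.0510, 0.0760 and 0.0654), and Gpr15 when WT replicate 2 or 3 or KO replicate 3 was (FDR = 0.0935, 0.0976 and 0.0772). Itgae and Itgav were called in every such fit. The log2 fold changes without KO replicate 1 were 2.09 for Itgae, 0.65 for Itgb7, 0.97 for Gpr15, 0.74 for Itgav and 0.49 for Selplg, all called.

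S1pr1 encodes the receptor that guides cells out of lymphoid organs. S1pr1 had 485, 531 and 671 CPM in WT and 329, 598 and 395 CPM in KO (log2 fold change -0.35, FDR = 0.321), and was called lower without KO replicate 2 (FDR = 0.0432), as Ccr7 was. Klf2, a transcription factor of this recirculation programme, had a log2 fold change of -0.06 (FDR = 0.885), with a direction that changed when 1 library was left out. Without KO replicate 1, 5 of the 15 adhesion and trafficking genes were called higher and 2 lower, beside 9.69% and 7.59% of the 11429 genes tested. The 2 called lower were Itgal (log2 fold change -0.49, FDR = 0.0421) and Cd44 (-0.72, FDR = 0.0031), Cd44 being named after its values were seen. With all 6 libraries Cd44 was not called (log2 fold change -0.35, FDR = 0.320).

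Downstream of the receptors, 30 of 31 listed signalling genes were tested, of which 4 rose, 5 fell and 21 did not pass the test, with a median log2 fold change of 0.09. The share that rose was near the 11.6% of all genes tested, and 7.27% of all genes tested fell. The genes that rose were Plcb3 (log2 fold change 1.01), Grk5 (0.74), Gng2 (0.59) and Rac1 (0.52), and those that fell were Rasgrp2 (-0.63), Plcb2 (-0.50), Pik3r5 (-0.45), Grk6 (-0.44) and Pik3cg (-0.29), the last named after its values were seen. Plcb2 and Plcb3 are 2 isoforms of the phospholipase C that beta-gamma subunits of G proteins activate. Plcb2 had 242, 234 and 247 CPM in WT and 167, 176 and 169 CPM in KO (FDR = 0.00586), and Plcb3 had 67.9, 58.9 and 51.6 CPM in WT and 115, 90.4 and 154 CPM in KO (FDR = 0.0155), the groups not overlapping for either. Grk5 and Grk6, kinases that switch off activated receptors, had FDRs of 0.0169 and 0.0281, and both lost their call when WT replicate 1, 2 or 3 was left out (highest FDR 0.0777 and 0.0993). Grk6 also lost it without KO replicate 3 (FDR = 0.0665). Plcb3, Gng2, Rasgrp2 and Pik3r5 lost theirs without WT replicate 2 (FDR = 0.0714, 0.0823, 0.0612 and 0.0626) and without WT replicate 3 (FDR = 0.0674, 0.0726, 0.0571 and 0.0591). Rac1 and Plcb2 were called in every such fit. Leaving out KO replicate 1, Pik3cg alone of these 9 genes lost its call (FDR = 0.0563), and the log2 fold changes of the other 8 lay between -0.55 and 1.03.

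Of 8 transcription factors tested among 9 listed for T cell homing states, Prdm1 rose and Bcl6 fell, and 6 did not pass the test, beside 11.6% of all genes tested called higher and 7.27% called lower. Prdm1, which encodes Blimp-1, the antagonist of BCL6, had 43.0, 62.6 and 44.2 CPM in WT and 155, 80.1 and 92.6 CPM in KO (log2 fold change 1.13, SE 0.27, FDR = 0.0280). It was above every WT library in every KO library, and the call was lost without WT replicate 1, 2 or 3 (FDR = 0.105, 0.0558 and 0.104). Its log2 fold change without KO replicate 1 was 0.77 (FDR = 0.0211). Gata3, the factor of type 2 cells, had a log2 fold change of -0.11 (FDR = 0.700), with a direction that changed when 1 library was left out.

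The genes whose level over the 6 libraries was most like that of each receptor were sought among the 11658 genes tested and are given as a description. For Cxcr5 these were Tmprss13 (Pearson r = 0.998) and Sh3d19 (0.997), for Ccr4 Hgfac (0.999) and Prelid2 (0.999), and for Ccr2 Nrp2 (0.993) and Fam20a (0.992). For the receptors that were not called they were Nudt14 and Sv2a for Ccr6, Dyrk2 and 4930523C07Rik for Ccr7, Dnajc16 and Napa for Ccr8, Itpripl2 and Efhd2 for Cxcr3, Rel and Twistnb for Cxcr4, and 6720489N17Rik and Pou2af1 for Cxcr6, with r between 0.967 and 0.998. Rel, the nearest to Cxcr4 (r = 0.995), encodes an NF-kappaB subunit. All these r values, over 6 libraries, were selected for being high, and shared regulation was not tested.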

How the data were processed

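Libraries were made by the authors with an unstranded kit, sequenced as single-end reads of 51 bases, mapped to mm10 by HISAT, with reads then assigned to genes by featureCounts. The deposited table holds the authors' raw counts per gene, without normalization. A gene needed more than 1 CPM in 3 or more libraries to enter the test, which was run in edgeR 4.0.16 under R 4.3.3 (TMM, QLF test without robust estimation, Benjamini-Hochberg FDR under 0.05). CPM values use the TMM-scaled library sizes. Permutation tests and likeness used log2 of CPM plus 0.5. Lengths, positions and 3′ UTRs came from GENCODE vM21 (GRCm38, the build mm10 names), and 10793 genes were matched to a 3′ UTR by symbol and 349 by another name. The samples are biological replicates, 1 mouse each. No pairing of replicate numbers was found. The steps were tested on simulated data.

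The members and lists were chosen with earlier results of these data known. The genes named were the 9 receptors, the other receptors tested, up to 4 called genes in each direction per list, Klf2, S1pr1, Tbx21, Bcl6 and Gata3, and the 2 genes most like each receptor, together with marker genes and the genes said to have been named after their values were seen. Cd69, Rgs2 and Cxcl9 were also chosen in that way. Alternatives covered normalisation, test, filter, threshold, the replicate block, gene length, 3′ UTR choice and leaving out each library. A few genes were taken out of the lists and are not reported here, and the list counts do not include them.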

Additional observations from a re-analysis of the deposited data

How the results depend on the processing

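Under RLE normalisation, library size alone, DESeq2 1.42.0, the likelihood ratio and exact tests, no filter, filterByExpr and robust estimation, Ccr2 was called higher and Cxcr5 and Ccr4 lower, as in the report. At an FDR under 0.01, 0 receptors were called higher and 1 lower (Cxcr5), with and without KO replicate 1. Leaving out 1 library gave 0 to 1 receptors called higher and 2 to 3 lower, the third being Ccr7 without KO replicate 2. Without KO replicate 1, Cxcr6 was also called lower with library size alone, the likelihood ratio test and the exact test. Directions that changed when 1 library was left out were those of Ccr7 (log2 fold change -0.58 to 0.17), Ccr8 (-0.042 to 0.70), Cxcr3 (-0.27 to 0.36), Cxcr4 (-0.96 to 0.23), Cxcr6 (-0.54 to 0.045), Ccrl2 (-0.38 to 0.67), Klf2 (-0.30 to 0.18) and Gata3 (-0.25 to 0.023). Same-numbered WT and KO libraries did not deviate together (r = 0.0804, -0.00560 and -0.195), and with a replicate block 1 receptor was called higher and 2 lower, Cxcr5 at -1.96, while Grk5 (FDR = 0.0534) and Grk6 (FDR = 0.0574) lost their call and 1606 genes were called in place of 2197. Over all genes, an FDR under 0.01 called 686, and leaving out WT replicate 1, 2 or 3 called 1022, 691 and 790. Library size alone called 1064 genes higher and 1201 lower (47% higher), against 1350 and 847. Searching all annotated 3′ UTRs also found 0 receptors with a site. The causes were not tested.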
